A study of Vitis vinifera with 9 samples.

Results

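The grape genes described here are annotated as coding for proteins that bind, splice or unwind RNA. They were chosen by searching the annotation text that was deposited with the study's own test results. Search words included splicing, snRNP, ribonucleoprotein, RNA-binding, RNA helicase, DEAD box, pentatricopeptide and argonaute. Ribosomal proteins, initiation factors and nucleolar proteins were left out. Of 124 probe sets (groups of probes for 1 transcript) that held a search word, 1 was left out, and 123 remained. In all, 16436 probe sets were tested, of which 10471 had annotation text in those deposited results. The rest could not be chosen. The 123 probe sets covered 112 gene symbols and 1 probe set without a symbol, and 8 symbols had more than 1 probe set. In 8 of the 123 the word stood only in a note on an alternative splicing isoform of the similar Arabidopsis gene or in the term tRNA-binding, so counts are also given for the other 115. Most genes are known only by their similarity to an Arabidopsis protein, and the roles named below are those of the Arabidopsis proteins.

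Leaves of Vitis vinifera 'Hongbaladuo', 30 days old, were detached, kept with their petioles in water, held in the dark at 25 °C for a short time and irradiated on the lower side with UV-C at 6 W m−2 for 10 min. Control leaves were taken at 0 h, before UV-C, and treated leaves at 6 h and 12 h after the start of the treatment. Each group held 3 replicates of 6 pooled leaves, and each replicate was measured on 1 Affymetrix array, which made 9 arrays. No untreated leaves of the later times entered the comparison, so that UV-C cannot be told apart from the time since detachment or from the time of day. The light in which the leaves stood between irradiation and sampling is not given.

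In plants, a new transcript of a nuclear gene is spliced by the spliceosome, whose core holds small nuclear ribonucleoproteins (snRNPs), while SR proteins and heterogeneous nuclear ribonucleoproteins (hnRNPs) influence which splice sites are used. RNA helicases of the DEAD-box family use ATP to unwind RNA during splicing, ribosome assembly, export and decay. Chloroplasts carry their own genome, and proteins encoded in the nucleus, among them chloroplast ribonucleoproteins and pentatricopeptide repeat proteins, are imported to stabilise, edit and splice the transcripts made there.

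Against the control, 17 of the 123 probe sets had risen and 15 had fallen by 12 h. The 6 h arrays gave 9 that rose and 16 that fell. To rise or fall here means a change of at least 2-fold that passed limma's test, with a Benjamini-Hochberg adjusted p under 0.05. Among all probe sets tested, 11.9% rose at 6 h and 14.7% fell, against 7.32% and 13% of the RNA-related ones. At 12 h, 14.7% of all probe sets rose and 17.5% fell, against 13.8% and 12.2%. Annotated probe sets, to which every RNA-related probe set belongs, were called more often, with 17.8% higher and 21.1% lower at 6 h and 21.6% higher and 25.1% lower at 12 h. Of the 123, 85 were called at neither time, 6 rose at both times, 13 fell at both times, and 0 were called in opposite directions at 6 h and 12 h. Leaving out the 8 probe sets matched by a shared word left 8 risen and 12 fallen at 6 h, then 16 risen and 11 fallen at 12 h. Those shares were 6.96% and 10.4%, then 13.9% and 9.57%. The median log2 change of the 123 was −0.07 at 6 h and 0.10 at 12 h, beside −0.03 and 0.05 for all probe sets tested.

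**Figure D1:**
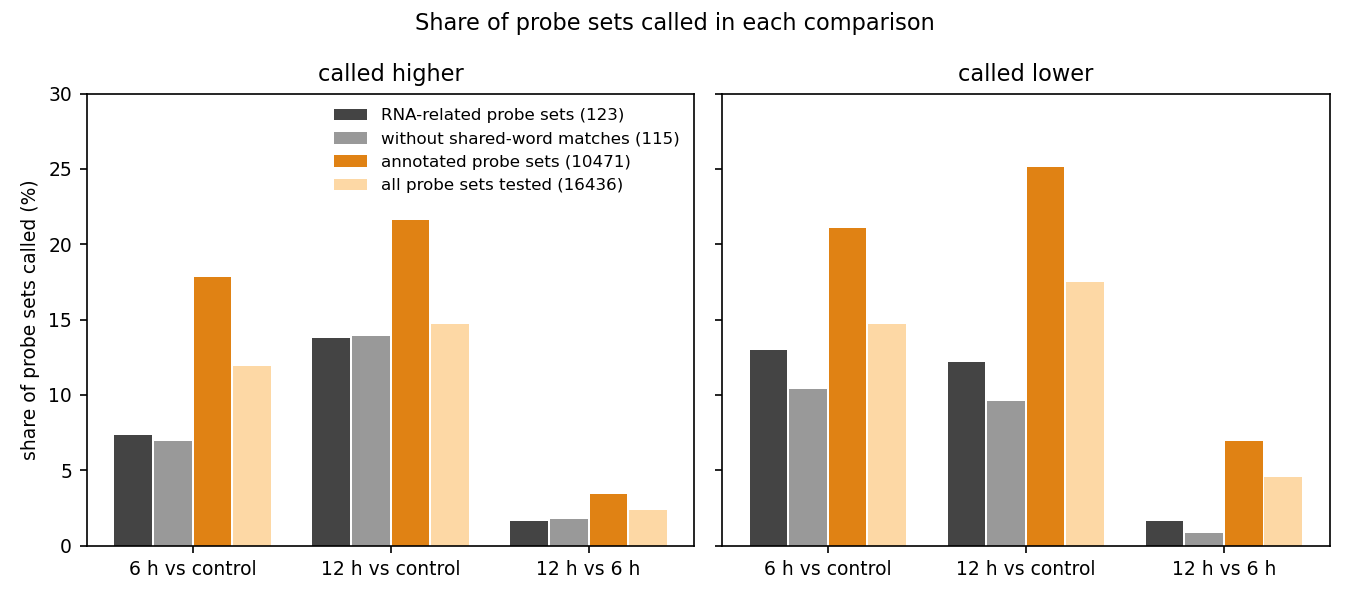
Share of probe sets called higher (left) and lower (right) in each of the 3 comparisons, in percent, for the RNA-related probe sets, for those left without shared-word matches, for the annotated probe sets and for all probe sets tested. In each comparison and direction the bar of the RNA-related probe sets is lower than that of the annotated ones, for example 13.8% against 21.6% for higher at 12 h.

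Scaling between arrays moved these splits. With each array centred on its median, the 6 h split was 14 higher and 11 lower, and the 12 h split 23 and 15. With the arrays centred on hybridization control probe sets, it was 6 higher and 19 lower, then 12 and 16. Centring on the median raised every log2 change by 0.13 at 6 h and 0.14 at 12 h, and centring on the controls lowered them by 0.16 and 0.14. Within a group the arrays correlated at 0.988 or higher. The log2 difference between the 3′ and 5′ probe sets of actin lay between 4.37 and 4.82 on all 9 arrays, while that of glyceraldehyde-3-phosphate dehydrogenase was 2.05 to 2.22 in the control, 1.97 to 2.17 at 6 h and 1.26 to 1.47 at 12 h. The part of this difference in the results below was not tested.

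**Figure D2:**
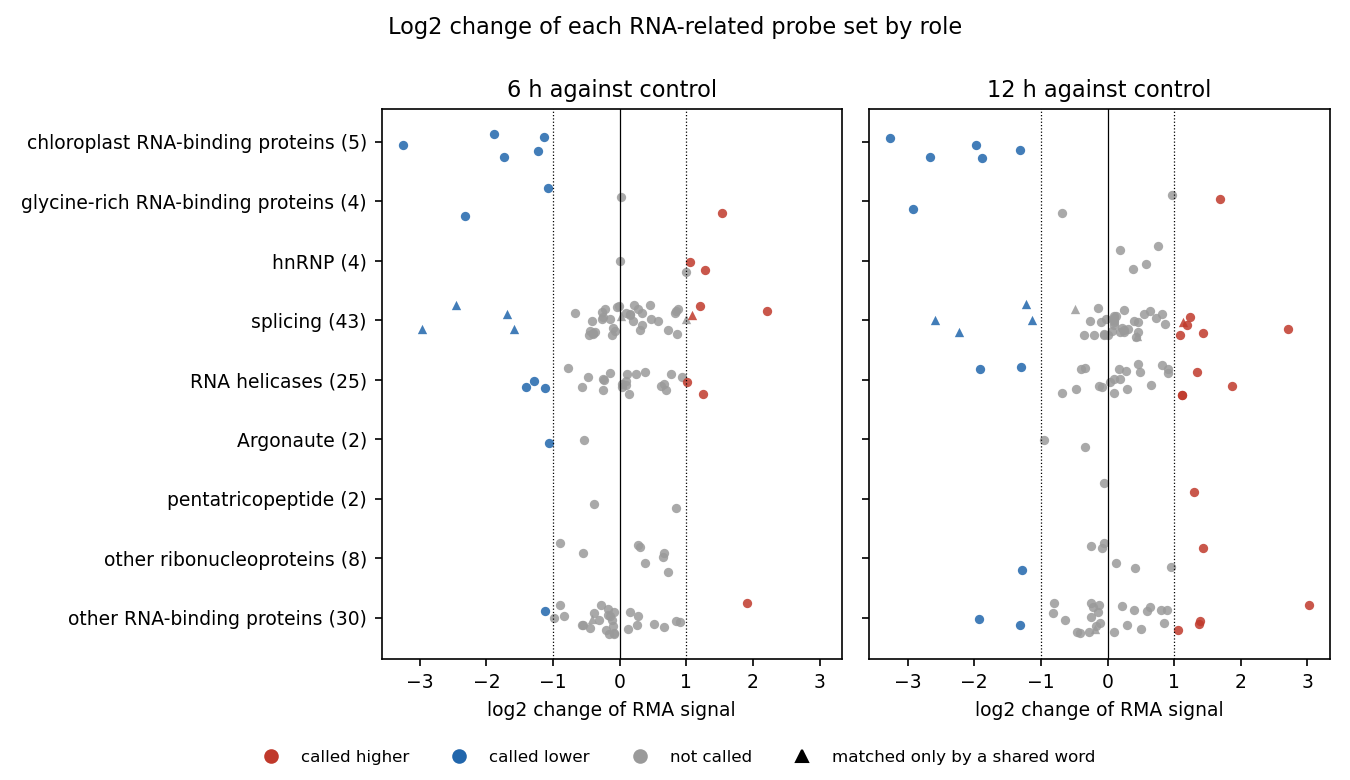
Log2 change of the RMA signal of each of the 123 probe sets at 6 h (left) and 12 h (right), 1 point per probe set, in rows by role with the number of probe sets in parentheses. Dotted lines mark a 2-fold change, and triangles mark probe sets matched only by a shared word. All 5 chloroplast RNA-binding proteins lie left of the lower line at both times, and most splicing factors and helicases lie between the lines.

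The chloroplast RNA-binding proteins fell together. All 5 probe sets of this role, each from another gene, fell at both times, 2.18-fold to 9.50-fold at 6 h, then 2.48-fold to 9.58-fold at 12 h. Of all probe sets tested, 14.7% fell at 6 h and 17.5% at 12 h, and of the annotated ones 21.1% and 25.1%. The words that define this role were chosen with earlier results of these data known. The median log2 change of the 5 was −1.74 and −1.97. Proteins of this kind carry RNA recognition motifs and bind transcripts inside the chloroplast.

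The strongest fall was that of LOC100248931, which has weak similarity to a chloroplast RNA-binding protein precursor. Its signal was 523.2, 758.1 and 470.4 on the control arrays, 70.59, 55.22 and 55.89 at 6 h, then 54.86, 70.3 and 55 at 12 h. Every treated array was below every control array, and the arrays of both treated times overlapped. The log2 change was −3.25 ± 0.19 (standard error, n = 3 arrays per group) at 6 h and −3.26 ± 0.19 at 12 h (adjusted p = 4.63e-07 and 2.79e-07). A second gene with similarity to the same Arabidopsis protein, LOC100243747, had 2769, 2468 and 2006 in the control, 1016, 897.7 and 1166 at 6 h, then 598.7, 659 and 576.8 at 12 h. The 3 groups did not overlap, and the 12 h arrays were the lowest. Its log2 change was −1.23 ± 0.14 at 6 h and −1.97 ± 0.14 at 12 h (adjusted p = 4.87e-05 and 1.28e-06).

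The gene similar to cp31 (LOC100257045), which in Arabidopsis is needed for the editing and stability of chloroplast transcripts, had a signal of 5935, 5041 and 6252 in the control, 1686, 1810 and 1658 at 6 h, then 924.1, 975.5 and 810.5 at 12 h. The groups were fully separate, with a step down at each time. The log2 change was −1.74 ± 0.11 at 6 h and −2.67 ± 0.11 at 12 h (adjusted p = 1.01e-06 and 4.01e-08), and the 12 h level was 1.91-fold below the 6 h level (adjusted p = 0.000428), short of the 2-fold threshold. LOC100255531, similar to cp33 of the same family, had 685.6, 662 and 591.9 in the control, 185.3, 158.9 and 179.8 at 6 h, then 172, 177.3 and 171.3 at 12 h. Its arrays at 6 h and 12 h overlapped, and both lay far below the control. The log2 change was −1.89 ± 0.10 at each time (adjusted p = 2.32e-07 and 1.36e-07).

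The fifth gene, LOC100246501, resembles a chloroplast ribonucleoprotein precursor. Its signal was 3770, 3696 and 3691 in the control, 1797, 1682 and 1632 at 6 h, then 1521, 1559 and 1416 at 12 h. All control arrays were above all treated arrays, with log2 changes of −1.13 ± 0.09 and −1.31 ± 0.09 (adjusted p = 2.82e-06 and 6.87e-07). Centred on the array medians, its 6 h change was −0.99, just short of the threshold, and the other 4 genes kept their calls.

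Further members outside this group also act in or resemble proteins of the chloroplast. LOC100266472, similar to the RNA-binding protein RNP-T and called a chloroplast ribonucleoprotein precursor in the study's own tables, had 2042, 2074 and 1984 in the control, 940.4, 941.3 and 928.5 at 6 h, then 791.8, 810.9 and 861.8 at 12 h. The groups did not overlap, and the replicates of each lay close together. Its log2 change was −1.12 ± 0.08 and −1.31 ± 0.08 (adjusted p = 2.07e-06 and 4.85e-07), and with arrays centred on their median the 6 h change was −0.98. LOC100251060, similar to the helicase RH3, which in Arabidopsis is a chloroplast DEAD-box protein of intron splicing and ribosome assembly, had 2891, 2827 and 2805 in the control, 1322, 1212 and 1404 at 6 h, then 820.1, 820 and 631.9 at 12 h. Its groups were separate and fell in the order of time. The log2 change was −1.12 ± 0.12 at 6 h and −1.92 ± 0.12 at 12 h (adjusted p = 2.91e-05 and 4.59e-07), and the 6 h change was −0.98 with arrays centred on their median.

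**Figure D3:**
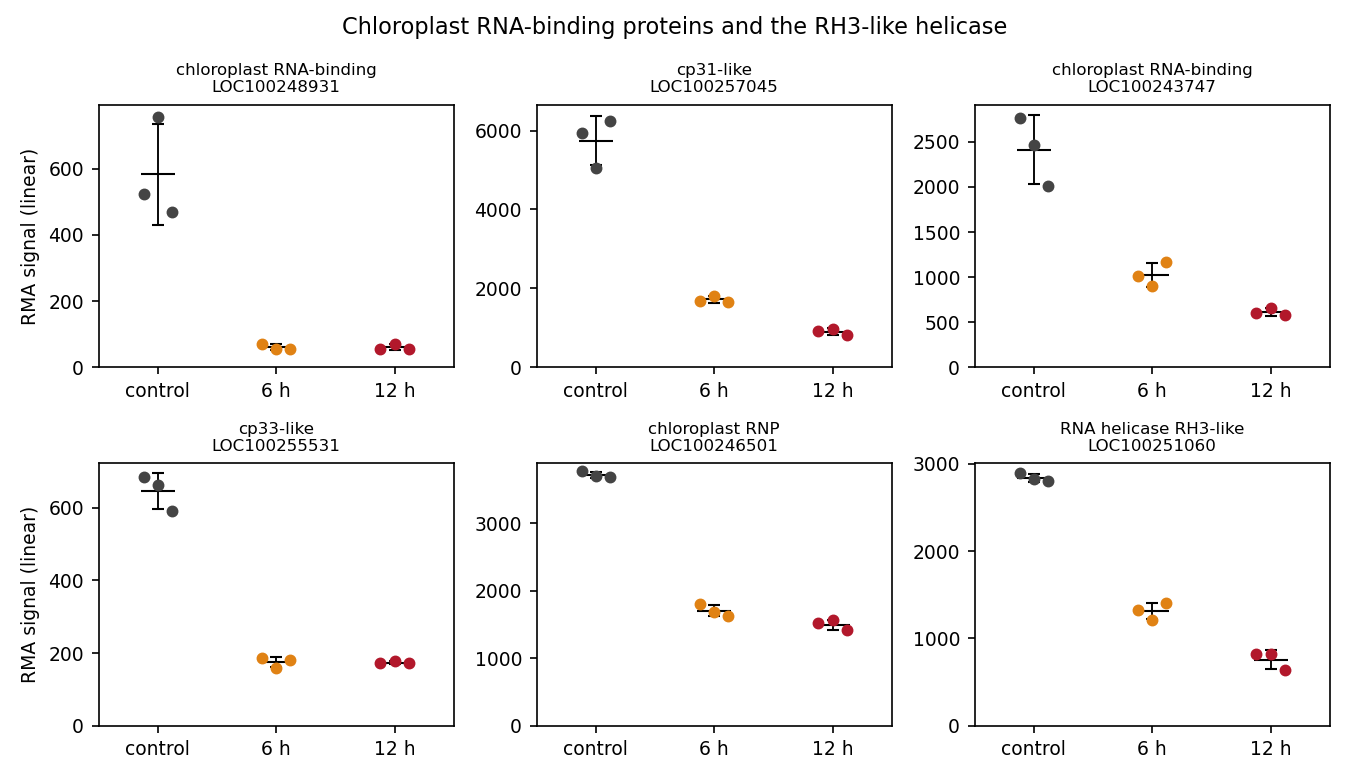
RMA signal (linear scale, axes from 0) of the 5 chloroplast RNA-binding genes and the RH3-like helicase, 1 point per array, with the mean and SD of the 3 arrays of each group. In every panel the control arrays lie above all treated arrays, as for cp31-like LOC100257045 with 5041 to 6252 in the control and 810.5 to 975.5 at 12 h.

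The summed signal of genes of the photosynthetic apparatus was lower in the same leaves. For 14 probe sets annotated as chlorophyll a/b-binding proteins or ribulose bisphosphate carboxylase it was 135050 to 152220 on the control arrays, 89436 to 94386 at 6 h and 45829 to 53251 at 12 h. Of the 14, 6 fell at 6 h and 11 at 12 h. Among all probe sets tested 14.7% and 17.5% fell, and among the annotated ones 21.1% and 25.1%. A list for tissues that leaves should lack (seed storage proteins, oleosins and pollen allergens) held 4 probe sets with a summed signal of 5674 to 8042 in the control, 35874 to 37689 at 6 h and 42086 to 44504 at 12 h, of which 2 rose and 1 fell at each time. Beside these rises, 11.9% of all probe sets tested rose at 6 h and 14.7% at 12 h. Of the annotated ones, 17.8% and 21.6% rose. No probe set of the list of 4 was annotated as oleosin, 2S albumin or legumin, and 3 of the 4 were annotated as pollen allergens. Fewer cells of a type and less RNA per cell cannot be told apart in whole leaves, and the part of either in the fall of the chloroplast RNA-binding genes was not tested.

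The 4 glycine-rich RNA-binding proteins went in different directions. These are small proteins with an RNA recognition motif and a glycine-rich tail, and several of them respond to cold or to the circadian clock in Arabidopsis. LOC100246039, similar to a putative glycine-rich RNA-binding protein, had 963, 1005 and 707.8 in the control, 184.6, 154.5 and 193.3 at 6 h, then 105.9, 113.7 and 130.4 at 12 h. The groups did not overlap. It fell 4.99-fold at 6 h and 7.58-fold at 12 h (log2 −2.32 ± 0.16 and −2.92 ± 0.16, adjusted p = 1.12e-06 and 1.52e-07).

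In contrast, the gene similar to GRP7 (LOC100253794), a clock-regulated protein that binds RNA and affects splicing in Arabidopsis, had 2401, 2743 and 2160 in the control, 7279, 6943 and 6787 at 6 h, then 7156, 8405 and 7742 at 12 h. All treated arrays were above all control arrays, and both treated times overlapped. Its log2 change was 1.53 ± 0.11 at 6 h and 1.68 ± 0.11 at 12 h (adjusted p = 1.97e-06 and 7.26e-07), but its probe set can also bind transcripts of related genes. The remaining pair showed a later change or one that was smaller at 12 h than at 6 h. LOC100247038, similar to AtGRP2, had 369.3, 375.6 and 381.7 in the control, 370.1, 419.7 and 357.2 at 6 h, then 644, 776.1 and 798.9 at 12 h. Only its 12 h arrays stood apart, with a log2 change of 0.97 ± 0.11 (adjusted p = 3.37e-05) that was just short of 2-fold. It was called with arrays centred on their median (1.11) and without 12 h replicate 1 (1.07). From 6 h to 12 h it changed by 0.95 ± 0.11 (adjusted p = 0.000329), which was called without 6 h replicate 2 (1.02) or 12 h replicate 1 (1.05). LOC100245744, another glycine-rich protein, had 366.9, 410.8 and 366.4 in the control, 178.2, 191.3 and 172.1 at 6 h, then 216.7, 241.4 and 256.1 at 12 h. It was lowest at 6 h and lay between at 12 h, without overlap, and it fell by 1.08 ± 0.10 on the log2 scale at 6 h (adjusted p = 1.13e-05), a call that was lost with arrays centred on their median (−0.94). At 12 h its log2 change was −0.68 ± 0.10 (adjusted p = 0.000225).

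The hnRNP group held 4 probe sets of 2 genes. hnRNPs package new transcripts and influence splice site choice. LOC100232913 was measured by 3 probe sets, which all had their highest mean signal at 6 h. The first had 797.8, 790 and 721.5 in the control, 1555, 1717 and 1522 at 6 h, then 1077, 1002 and 927.2 at 12 h. The second had 189.8, 173.7 and 179.8, then 411.4, 489.6 and 422.7, then 285, 309.7 and 224.3. In both, the 3 groups did not overlap, and the 12 h arrays lay between the others. Their log2 changes at 6 h were 1.05 ± 0.10 and 1.28 ± 0.13 (adjusted p = 1.14e-05 and 2.17e-05), and the first was 0.89 with arrays centred on hybridization controls. At 12 h the log2 changes were 0.38 ± 0.10 and 0.58 ± 0.13, below 2-fold, and the levels were 1.60-fold and 1.63-fold below those at 6 h (adjusted p = 0.00109 and 0.00377). The third probe set had 50.23, 47.09 and 44.21 in the control, 89.75, 105.9 and 87.75 at 6 h, then 88.75, 79.21 and 71.59 at 12 h. Its treated arrays were above the control, and both treated times overlapped. Its log2 change at 6 h was 1.00 ± 0.12, which lay just under the threshold before rounding (adjusted p = 5.37e-05), and it was called with arrays centred on their median (1.13), without control replicate 1 (1.04), and without 6 h replicate 1 (1.03) or 3 (1.05). The other gene, LOC100254786, had signals of 51.17 to 61.65 in the control, 53.01 to 60.43 at 6 h and 57.86 to 70.52 at 12 h, which overlapped.

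Of 36 probe sets annotated as spliceosome components or splicing factors, without the 7 matched through a note on splicing isoforms, 2 rose at 6 h and 5 rose at 12 h, and 0 fell at either time. The 36 do not hold the probe sets that resemble a transformer-SR protein, which were counted with the other ribonucleoproteins. Of those, LOC100246735 fell at 12 h (log2 −1.29). The 5 that rose at 12 h were 13.9% of the 36, beside 14.7% of all probe sets tested. The 2 at 6 h were 5.56%, beside 11.9%, while 14.7% of all probe sets fell at 6 h and 17.5% at 12 h. Of the annotated probe sets, 17.8% rose and 21.1% fell at 6 h, then 21.6% and 25.1% at 12 h. None of the 36 fell with arrays centred on their median or on hybridization controls either, while 3 and 2 rose at 6 h and 6 and 4 at 12 h. Without a fold threshold, 19 of the 36 passed at an adjusted p under 0.05 at 6 h and 13 at 12 h. The uncalled log2 changes ranged from −0.67 to 0.88 at 6 h and from −0.36 to 0.86 at 12 h, and the median of the 36 was 0.12 and 0.22.

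The gene with the largest rise in this role was LOC100252111, which has weak similarity to a human protein named peter pan homolog or second-step splicing factor, a name shared with a factor of large ribosomal subunit assembly. Its signal was 71.36, 92.63 and 91.17 in the control, 352, 500.8 and 338 at 6 h, then 485.4, 534.1 and 645 at 12 h. The control arrays were far below all others, and the 6 h and 12 h arrays overlapped. It rose 4.62-fold at 6 h and 6.52-fold at 12 h (log2 2.21 ± 0.18 and 2.71 ± 0.18, adjusted p = 4.04e-06 and 6.91e-07).

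SR proteins carry an RNA recognition motif and a tail rich in arginine and serine, and they help the spliceosome to find splice sites. The gene similar to the SR factor RSP41 (LOC100255597) had 349.6, 391.7 and 463.2 in the control, 968.8, 833.2 and 965.5 at 6 h, then 1123, 1066 and 1039 at 12 h. The groups did not overlap, and it rose by 1.21 ± 0.12 and 1.43 ± 0.12 on the log2 scale (adjusted p = 1.77e-05 and 3.85e-06), with a probe set that can bind related transcripts. LOC100262670, similar to SRp40 and named here after its values were seen, had 427.2 to 468.8 in the control, 705.5 to 910.4 at 6 h and 927.9 to 1123 at 12 h. It was called at 12 h (log2 1.19 ± 0.12, adjusted p = 1.37e-05), and its log2 change at 6 h was 0.86 ± 0.12.

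LOC100263028, similar to the C protein of the U1 snRNP, the particle that recognises the 5′ splice site, had 190, 193.3 and 179.6 in the control, 283.5, 286.5 and 264.2 at 6 h, then 453.1, 433.1 and 446.8 at 12 h. Replicates lay close together and the groups were separate. It rose by 1.24 ± 0.09 on the log2 scale at 12 h (adjusted p = 8.53e-07), after 0.57 ± 0.09 at 6 h, and the 12 h level was 1.60-fold above the 6 h level (adjusted p = 0.000483). A small nuclear ribonucleoprotein gene, LOC100242311, also named after its values were seen, rose 2.14-fold at 12 h (log2 1.09 ± 0.14, adjusted p = 6.99e-05), a call lost without 12 h replicate 3 (0.98) and with arrays centred on hybridization controls (0.95). Its 6 h change of 0.88 was called with arrays centred on their median (1.02).

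A pair of genes for central spliceosome components, chosen by name after their values were seen, were not called. LOC100257584, similar to Prp8 at the catalytic core of the spliceosome, had log2 changes of −0.67 (adjusted p = 0.0282) and −0.36 (adjusted p = 0.193). The 3 probe sets of LOC100241076, of which 1 is annotated as U2 snRNP auxiliary factor, the protein that recognises the 3′ splice site, ranged from −0.14 to 0.34 at 6 h and from 0.06 to 0.45 at 12 h.

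**Figure D4:**
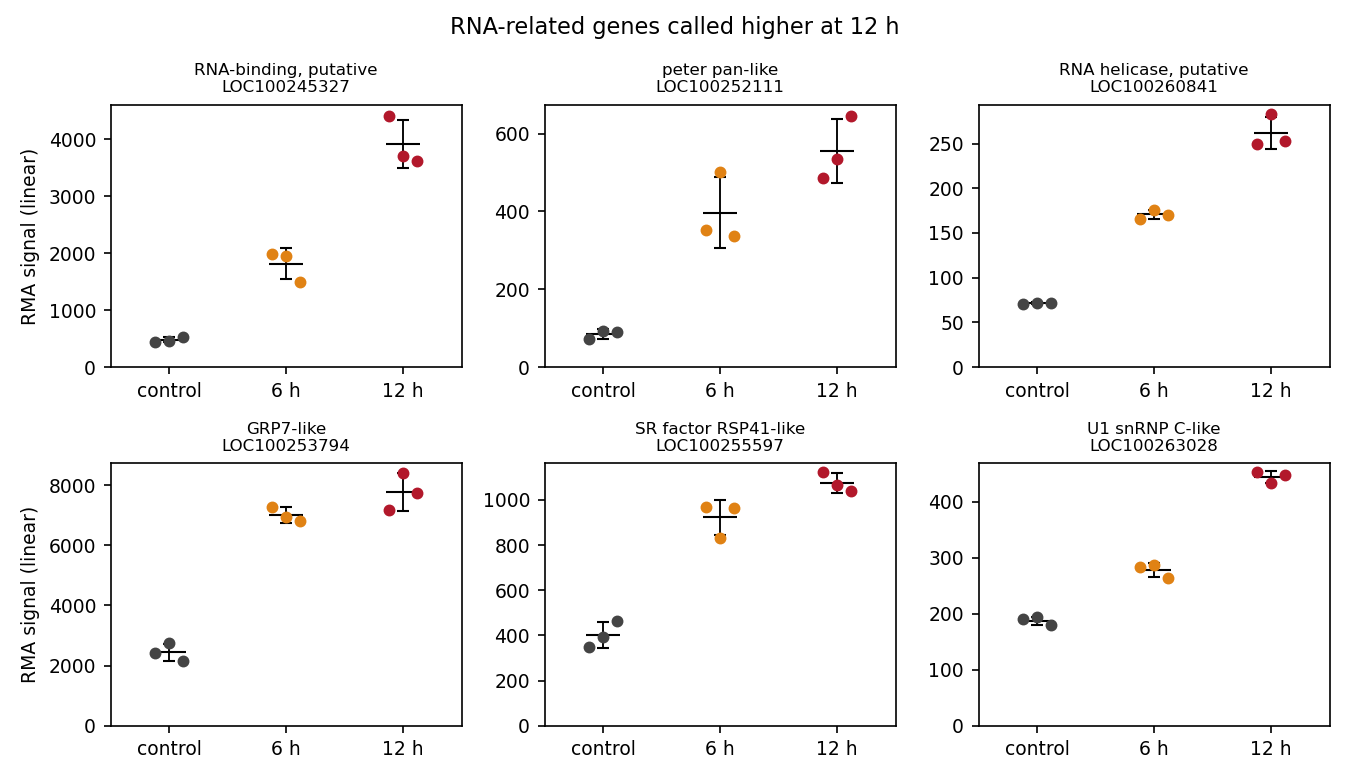
RMA signal (linear scale, axes from 0) of 6 genes called higher at 12 h, 1 point per array, with the mean and SD of the 3 arrays of each group. The control arrays lie below all treated arrays in every panel. LOC100245327 shows the largest fold change of the 6 at 12 h (8.12-fold), with 446.3 to 531.7 in the control and 3624 to 4401 at 12 h.

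RNA helicases had 25 probe sets. At 6 h, 2 rose and 3 fell, then 4 and 2 at 12 h, while 20 and 19 were not called. These were 8% and 12% at 6 h, beside 11.9% and 14.7% of all probe sets tested and 17.8% and 21.1% of the annotated ones. At 12 h they were 16% and 8%, beside 14.7% and 17.5% of all and 21.6% and 25.1% of the annotated ones. Their median log2 change was 0.10 at 6 h and 0.19 at 12 h, and it was −0.07 and 0.05 with arrays centred on hybridization controls.

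LOC100260841, similar to a putative ATP-dependent RNA helicase, rose most. Its signal was 71.01, 72.18 and 71.92 in the control, 166, 176.2 and 170.6 at 6 h, then 250, 282.6 and 252.8 at 12 h. The 3 groups were widely separate and stepped up with time. The rise was 2.38-fold at 6 h and 3.65-fold at 12 h (log2 1.25 ± 0.09 and 1.87 ± 0.09, adjusted p = 1.48e-06 and 7.00e-08). LOC100240950, an ATP-dependent RNA helicase-like gene, had 260.6, 276.3 and 230.5 in the control, 525.8, 517.7 and 498.2 at 6 h, then 677.1, 670.1 and 591.2 at 12 h. Its groups did not overlap. On the log2 scale it changed by 1.01 ± 0.10 at 6 h and 1.34 ± 0.10 at 12 h (adjusted p = 1.93e-05 and 1.93e-06), and the 6 h call, at the threshold, was lost without control replicate 3 (0.94), without 6 h replicate 1 (0.99) and with arrays centred on hybridization controls (0.85).

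LOC100250155, another ATP-dependent RNA helicase-like gene, had 61.8, 60.59 and 77.48 in the control, 128.4, 133.9 and 119.1 at 6 h, then 152, 169.5 and 116.4 at 12 h. All treated arrays were above the control, and the treated times overlapped. It was called at 12 h (log2 1.12 ± 0.15, adjusted p = 0.000124), though not with arrays centred on hybridization controls (0.98), and had a log2 change of 0.94 ± 0.15 at 6 h, which was called without control replicate 3 (1.05) and with arrays centred on their median (1.07). Of 2 further genes similar to the same Arabidopsis helicase, LOC100245822 and LOC100250337, singled out after their values were seen, neither was called, with log2 changes of 0.04 and 0.82 at 12 h. The last helicase called higher, LOC100247027, named after its values were seen, rose 2.18-fold at 12 h (adjusted p = 2.76e-05), but with arrays centred on hybridization controls its log2 change was 0.98 and not called.

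Beside the RH3-like gene, a pair of helicase genes fell. LOC100253463, similar to RH22, a DEAD-box protein of chloroplast ribosome assembly in Arabidopsis, had 118.1, 137.2 and 160.8 in the control, 46.34, 63.99 and 47.03 at 6 h, then 51, 59.06 and 57.78 at 12 h. The treated arrays overlapped each other and lay below the control. It fell 2.65-fold and 2.47-fold (log2 −1.41 ± 0.16 and −1.30 ± 0.16, adjusted p = 3.72e-05 and 5.04e-05). LOC100243580, annotated as a putative RNA helicase but named after an RNase III in the study's own tables, had 73.58, 99.39 and 98.59 in the control, 43.51, 33.21 and 35.05 at 6 h, then 54.07, 58.96 and 53.49 at 12 h. Its lowest arrays were those at 6 h. It fell by 1.28 ± 0.15 on the log2 scale at 6 h (adjusted p = 4.58e-05), and at 12 h the log2 change was −0.69 ± 0.15 (adjusted p = 0.00229).

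Argonaute proteins hold small RNAs and use them to find target transcripts, and 2 such genes were measured. The first is annotated as similar to an AGO1-like protein and the second to AGO1. LOC100241029 had 180.7, 201.9 and 271.6 in the control, 94.1, 108.2 and 108.2 at 6 h, then 116.6, 106.1 and 107.9 at 12 h. The treated arrays overlapped each other and lay below the control. Its log2 change was −1.06 ± 0.15 at 6 h (adjusted p = 0.000177) and −0.96 ± 0.15 at 12 h (adjusted p = 0.000269). Both values lie at the threshold, since the 6 h call was lost without control replicate 3 (−0.89), without 6 h replicate 1 (−0.99) and with arrays centred on their median (−0.92), while the 12 h change was called without control replicate 1 (−1.09), control replicate 2 (−1.01) or 12 h replicate 1 (−1.01) and with arrays centred on hybridization controls (−1.11). LOC100256320 had 1324, 1172 and 1487 in the control, 915.6, 945 and 893.7 at 6 h, then 1100, 1107 and 927.3 at 12 h. Its control arrays were above the rest, by less than 2-fold (log2 −0.53 ± 0.12 and −0.34 ± 0.12, adjusted p = 0.00337 and 0.0278).

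Pentatricopeptide repeat proteins bind specific sites in the transcripts of chloroplasts and mitochondria, and of this large plant family only 2 probe sets carried the name. LOC100259252 had 194, 176.6 and 271.4 in the control, 360, 339.4 and 445.3 at 6 h, then 555.8, 535.2 and 454.4 at 12 h. The groups did not overlap, and it was called at 12 h (log2 1.29 ± 0.17, adjusted p = 0.000116), after 0.85 ± 0.17 at 6 h, a value that reached 1.03 and was called without control replicate 3. LOC100248887 had 444.6 to 690.6 in the control, 404.4 to 435.1 at 6 h and 499.3 to 538.7 at 12 h, with log2 changes of −0.38 ± 0.15 and −0.06 ± 0.15 (adjusted p = 0.0532 and 0.75).

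Other ribonucleoproteins made up 8 probe sets, of which 5 resemble the same transformer-SR protein, named after a splicing regulator of Drosophila. Of these 5, only LOC100246735 was called. It had 2021, 1772 and 1592 in the control, 838.5, 959.4 and 1081 at 6 h, then 721.7, 833.3 and 642.9 at 12 h. All treated arrays were below all control arrays, with log2 changes of −0.90 ± 0.14 at 6 h and −1.29 ± 0.14 at 12 h (adjusted p = 0.00038 and 2.47e-05), and with arrays centred on hybridization controls the 6 h change was also called (−1.07). The other 4 had log2 changes of 0.28 to 0.73 at 6 h and −0.08 to 0.41 at 12 h. LOC100246013, similar to a ribonucleoprotein-like protein, had 307, 265.5 and 322.3 in the control, 458.3, 473.6 and 467.4 at 6 h, then 788.8, 812.1 and 798.5 at 12 h. Its replicates were close and its groups separate, and it rose 2.69-fold at 12 h (log2 1.43 ± 0.10, adjusted p = 7.56e-07). Its 12 h level lay 1.71-fold over that of 6 h (adjusted p = 0.000437), and this probe set can bind related transcripts. The remaining pair, named after their values were seen, were not called, with log2 changes of −0.55 and −0.25 for LOC100257917 and 0.66 and 0.95 for LOC100257891. At 12 h the latter was called without control replicate 3 (1.12) or 12 h replicate 3 (1.08) and with arrays centred on their median (1.09).

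The largest mixed role, other RNA-binding proteins, held 30 probe sets, with 1 risen and 1 fallen at 6 h, then 4 and 2 at 12 h. These were 3.33% and 3.33% at 6 h, beside 11.9% and 14.7% of all probe sets tested and 17.8% and 21.1% of the annotated ones. At 12 h they were 13.3% and 6.67%, beside 14.7% and 17.5% of all and 21.6% and 25.1% of the annotated ones. The largest rise of all 123 probe sets was that of LOC100245327, similar to a putative Arabidopsis RNA-binding protein. Its signal was 446.3, 465 and 531.7 in the control, 1992, 1947 and 1498 at 6 h, then 4401, 3709 and 3624 at 12 h. The groups were far apart and stepped up with time. It rose 3.75-fold at 6 h and 8.12-fold at 12 h (log2 1.91 ± 0.14 and 3.02 ± 0.14, adjusted p = 1.89e-06 and 5.92e-08). A second gene similar to the same protein, LOC100261591, which the study's tables call a CTC-interacting domain protein, a kind that binds the poly(A)-binding protein in Arabidopsis, was singled out after its values were seen. It had 728.7 to 860.1 in the control, 1089 to 1197 at 6 h and 1584 to 1725 at 12 h, and was called at 12 h (log2 1.06 ± 0.10, adjusted p = 6.59e-06), though not with arrays centred on hybridization controls (0.92).

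LOC100248626, similar to an RNA-binding protein with no further name, had 586, 563.7 and 690.6 in the control, 1183, 1167 and 1102 at 6 h, then 1575, 1772 and 1453 at 12 h. LOC100258231, similar to a probable RNA-binding protein, had 539.3, 619.9 and 637.7 in the control, 1012, 955.2 and 877.2 at 6 h, then 1534, 1604 and 1508 at 12 h. In both genes the groups stepped up without overlap. The log2 changes at 12 h were 1.38 ± 0.11 and 1.37 ± 0.10 (adjusted p = 3.07e-06 and 1.48e-06), and at 6 h they were 0.91 ± 0.11 and 0.66 ± 0.10. The first was also called at 6 h without control replicate 3 (1.00) and with arrays centred on their median (1.05).

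Between 12 h and 6 h, 4 of the 123 probe sets were called, 2 higher and 2 lower, or 1.63% in each direction. Without the shared-word matches 2 and 1 of the 115 were called, or 1.74% and 0.87%. Of all probe sets tested, 2.34% were called higher and 4.54% lower, and of the annotated ones 3.45% and 6.95%. LOC100245327, described above, was 2.17-fold higher at 12 h (log2 1.12 ± 0.14, adjusted p = 0.000453), a call that was lost without 6 h replicate 3 (0.98). A gene similar to Pumilio proteins (LOC100265064), which bind the 3′ untranslated part of transcripts and lower their stability or translation, had 353.2, 388.2 and 380 in the control, 361.3, 287.7 and 352.2 at 6 h, then 668.6, 802.8 and 622.3 at 12 h. The control and 6 h arrays overlapped, and the 12 h arrays were above both. The 12 h level was 2.09 times that of 6 h (log2 1.06 ± 0.13, adjusted p = 0.000387), but 0.96 without 6 h replicate 2 or without 12 h replicate 2, and against the control its 12 h change was 0.89 ± 0.13, or 1.03 and called with arrays centred on their median.

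LOC100261308, similar to a putative RNA-binding protein, went the other way. It had 9801, 8765 and 8852 in the control, 5012, 4637 and 5756 at 6 h, then 2623, 2647 and 1970 at 12 h. The groups were separate, with a step down at each time. Against the control the log2 change was −0.84 ± 0.14 at 6 h (adjusted p = 0.000538) and −1.93 ± 0.14 at 12 h (adjusted p = 1.15e-06), and from 6 h to 12 h it fell by 1.10 ± 0.14 (adjusted p = 0.000482), or by 0.96 without 12 h replicate 3. The remaining probe set called between the times, LOC100262557, belongs to the shared-word matches.

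The 8 shared-word matches mostly code for other kinds of proteins, and 4 of them fell and 1 rose at each time, or 50% and 12.5%. Among all probe sets tested, 14.7% fell and 11.9% rose at 6 h, then 17.5% and 14.7% at 12 h. Among the annotated ones, 21.1% fell and 17.8% rose at 6 h, then 25.1% and 21.6% at 12 h. Of the 4 that fell, 3 resemble a glucosyltransferase, an enzyme that attaches glucose to small molecules. LOC100268157 had 389.3, 477.7 and 662.9 in the control, 82.15, 57.6 and 55.28 at 6 h, then 47.25, 208.7 and 57.02 at 12 h. The second 12 h array stood well above the other treated arrays, although still below the control, and this probe set can bind related transcripts. Its log2 change was −2.96 ± 0.48 and −2.59 ± 0.48 (adjusted p = 0.0005 and 0.00102). LOC100261214 had 243.3, 246.7 and 142.9 in the control, 55.68, 34.37 and 26.87 at 6 h, then 48.92, 45.43 and 37.7 at 12 h, and LOC100254650 had 72.9, 113.4 and 109.8, then 41.43, 29.47 and 27.42, then 34.82, 46.29 and 44.9. In both, the control arrays were above the rest. Their log2 changes were −2.46 ± 0.28 and −1.59 ± 0.21 at 6 h, then −2.23 ± 0.28 and −1.22 ± 0.21 at 12 h (adjusted p from 4.62e-05 to 0.000674). Another gene similar to this enzyme, LOC100257268, named after its values were seen, was not called, with log2 changes of 0.02 and 0.44.

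LOC100262557, similar to an Arabidopsis protein of unknown function, was the 1 shared-word match that rose at 6 h. It had 274.3, 227.6 and 220.5 in the control, 513.8, 592.4 and 434 at 6 h, then 159.3, 187.7 and 165.6 at 12 h. The groups did not overlap, with the highest arrays at 6 h and the lowest at 12 h. Its log2 change was 1.09 ± 0.14 at 6 h (adjusted p = 9.77e-05) and −0.49 ± 0.14 at 12 h (adjusted p = 0.0121), and 12 h was 2.99-fold below 6 h (log2 −1.58 ± 0.14, adjusted p = 8.30e-05). The 6 h call was lost without 6 h replicate 2 (0.98) and with arrays centred on hybridization controls (0.93). Of the other 3, which were named after their values were seen, a gene similar to enoyl-ACP reductase (LOC100241680), an enzyme of fatty acid synthesis, fell at both times, LOC100255424 rose at 12 h, and a CCR4-Not complex component (LOC100253711), of a complex that shortens poly(A) tails, was not called, with log2 changes of −0.42 and −0.19. The 12 h fall of LOC100241680 (log2 −1.14 ± 0.32, adjusted p = 0.0105) was lost without control replicate 3 (−0.88) or 12 h replicate 3 (−0.92), and the rise of LOC100255424 (1.13) with arrays centred on hybridization controls (0.99). At 6 h LOC100255424, with 0.99, was called with arrays centred on their median (1.13) and without control replicate 1 (1.02), 6 h replicate 1 (1.00) or 6 h replicate 3 (1.06).

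Where 1 gene was measured by several probe sets, their log2 changes were set beside each other. Over the 8 such genes the log2 changes of the probe sets of a gene differed by at most 0.48 at 6 h and 0.39 at 12 h. Both values came from LOC100241076, whose changes at 6 h ran from −0.14 to 0.34. Calls differed in 1 gene only, the hnRNP gene LOC100232913 at 6 h, and no probe set of the other genes was called.

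Outside the RNA-related probe sets described so far, 56 others carried further words of RNA metabolism such as RNA polymerase, ribonuclease, CCCH, poly(A) and nonsense-mediated. At 6 h 6 of these rose and 8 fell, and at 12 h 7 and 8, counting among the falls a DELLA protein that matched only by its letters. These were 10.7% and 14.3% at 6 h and 12.5% and 14.3% at 12 h, each below the share of all probe sets tested (11.9%, 14.7%, 14.7% and 17.5%). The shares of the annotated probe sets, to which the 56 belong, were 17.8%, 21.1%, 21.6% and 25.1%. The genes named from this set were picked after their values were seen. Of the 8 falling at 12 h, 4 came from sigma factors of the plastid RNA polymerase, which start transcription in the chloroplast. Their log2 changes at 12 h were −4.03 for LOC100256191, −3.21 for LOC100267110, and −3.80 and −3.03 for the 2 probe sets of LOC100243819. Probe sets annotated as alpha or beta chains, or as alpha or beta subunits, of RNA polymerase were not called at either time. Their log2 changes at 12 h ranged from −0.80 to 0.25. Some other RNA polymerase subunits, apart from the sigma factors, were called. LOC100245061 (log2 2.14 and 2.12) and LOC100243245 (1.30 and 1.78) rose at both times, and LOC100259318 rose at 12 h (1.21). LOC100261398 fell at both times (−1.49 and −1.36), and the rest were not called. The highest value of the 56 was that of LOC100248433, similar to a protein that interacts with the poly(A)-binding protein and to ERD15, known from dehydration in Arabidopsis, with a log2 change of 4.19 at 6 h and 4.61 at 12 h. A gene similar to a nonsense-mediated decay protein (LOC100245020) rose by 2.09 and 2.19 on the log2 scale.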

How the data were processed

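The authors deposited 1 table of linear RMA intensities from 9 Affymetrix arrays, 3 per group, that is, background-corrected, quantile-normalised and summarised per probe set. The 3 deposited SAM tables hold the authors' scores, q-values and fold changes. These were not used, and only the probe set annotation was taken from them. Single probes were not analysed here, and the number of arrays limits the precision. Intensities were log2-transformed, 165 control probe sets were left out, and 16436 were fitted with limma 3.58.1 (lmFit and eBayes, 3 groups, no block) in R 4.3.3, with Benjamini-Hochberg adjustment over all of them. Errors are standard errors of the log2 change. Replicates were separate runs of the treatment with 6 leaves each, and which plants the leaves came from is not given in the sources used here.

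The search words, roles and gene lists were chosen with earlier results of these data known. Named genes were every member of roles with 6 or fewer members, the 3 highest and 3 lowest called at 12 h and the 2 highest and 2 lowest called at 6 h in each other role, up to 5 called in each direction between the times, any gene called in opposite directions, and all probe sets of a named gene. Others are said to be named after their values were seen. Of the 112 symbols, 104 were found in the RefSeq gene table. Alternatives were other call thresholds, fits of 2 groups only, a mean-variance trend with robust estimation, a filter on dim probe sets, 2 scalings, no probe sets that may share sequence, averages per gene, a replicate block, leaving out each array, and leaving out shared-word matches, which was chosen after seeing the data. The fit was tested on simulated data.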

Additional observations from a re-analysis of the deposited data

Results flagged for a closer look

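The 4 genes below differed between 12 h and 6 h by limma's test, so that their changes against the shared control were not of one size at both times. LOC100245327, similar to a putative RNA-binding protein, had a log2 difference of 1.12 (adjusted p = 0.000453), and the Pumilio-like LOC100265064 one of 1.06 (adjusted p = 0.000387). LOC100261308, similar to another putative RNA-binding protein, had −1.10 (adjusted p = 0.000482). LOC100262557, matched only by a note on a splicing isoform, had −1.58 (adjusted p = 8.30e-05), and its change against the control was positive at 6 h and negative at 12 h. Groups of 3 arrays were too small to test for single arrays that stand apart.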

How the results depend on the processing

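Thresholds moved the counts most. With no fold threshold, 38 probe sets were called higher and 39 lower at 6 h, 46 and 29 at 12 h, and 32 and 14 between 12 h and 6 h. With arrays centred on their median, 14 were higher at 6 h in place of 9. Without shared-word matches, chosen after seeing the data, 1 was lower between the times. Leaving out 1 array gave 8 to 11 higher and 15 to 17 lower at 6 h, 17 to 19 and 14 to 16 at 12 h, and 1 to 3 and 1 to 2 between the times. The count higher between the times was 1 without 6 h replicate 3 or without 12 h replicate 2, and the count lower was 1 without 12 h replicate 3. Of 120 counts under alternatives, 109 lay within 1.5 times the value reported and 11 did not. No pairing by replicate number was seen, since the deviations of same-numbered arrays correlated at −0.16 to 0.14. Groups of 3 arrays are too small for this to exclude pairing. With a replicate block the counts were 9 and 16, 17 and 15, and 2 and 2, with the same probe sets called. Of 54 called values of named genes, 42 kept their call under every alternative run and 12 lost it under at least 1, and none of the 1812 recomputed values of named genes reversed. The cause of these shifts was not tested.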
